A study of Mus musculus with 24 samples.

Results

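The 9 genes described here encode structural proteins, receptors, channels and transporters of the pigment cell, namely Pmel, Mlana, Gpnmb, Gpr143, Mc1r, Trpm1, Oca2, Slc45a2 and Slc24a5. They were taken by symbol, and all 9 were among the 12010 genes of the deposited table. Messenger RNA came from B16F10-luc2 cells, a C57BL/6 mouse melanoma line that carries a luciferase reporter, in 8 lines with 3 libraries each. The parental cells are wild type for Mitf, Tfeb and Tfe3, and the other 7 lines are the MITF KO, the TFE3 KO, the TFEB KO, the TFEB/TFE3 DKO, the MITF/TFE3 DKO, the MITF/TFEB DKO and the TKO, which lacks all 3 factors. The luciferase reporter is shared by all 8 lines, which grew untreated in DMEM with serum. The MITF KO line carries a frameshift and, as the study's text says, may still make a little of a shortened MITF protein. Tfeb and Tfe3 were cut with Cas9, and the KO lines were isolated as clones. With 1 line per genotype, the genotype and the clone cannot be told apart. The paper states that Cas9 was applied both to parental cells and to cells already carrying the Mitf frameshift. Every line without MITF therefore goes back to 1 MITF KO line. Comparisons of cells with and without MITF, differences of differences included, rest on that 1 origin. The paper does not say whether the TKO was made from one of the double KO lines. The MITF/TFEB DKO line and the TKO may therefore share their loss of TFEB and are not taken as independent of each other. Whether the derived lines also make the shortened protein was not tested here. Nothing in the labels says that the 3 libraries of a line came from separate cultures, so that the p-values measure only the spread between these libraries.

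Melanosomes are lysosome-related organelles in which melanin is made and stored. PMEL is cut into fragments that form the amyloid fibrils of the early organelle, MLANA helps PMEL to mature, and GPNMB is a glycoprotein related to PMEL. MC1R, the melanocortin receptor, raises cyclic AMP and with it the transcription of Mitf, whereas GPR143 is a receptor of the melanosome membrane itself. OCA2 is a chloride channel and SLC45A2 a sugar and proton transporter that both keep the organelle's pH suited to tyrosinase, SLC24A5 is an exchanger of sodium, potassium and calcium, and TRPM1 is a cation channel whose gene is a classical target of MITF. MITF, TFEB and TFE3 are related bHLH-LZ factors that bind the sequences CACGTG and CATGTG, the second of which is favoured with a T in front of it.

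RefSeq promoter sequences, on the build GRCm38.p6, were found for 5 of the 9 members (Gpnmb, Mc1r, Trpm1, Oca2 and Slc24a5). They are shown because the members below moved together, or failed to, between lines that differ in these factors. Each run gives the 250 bases before a start site, from 5′ to 3′, and the capitals mark CACGTG or CATGTG on either strand, with the flanking T (A on the other strand) where it is present.
Mc1r (chr8:123406832-123407081, + strand): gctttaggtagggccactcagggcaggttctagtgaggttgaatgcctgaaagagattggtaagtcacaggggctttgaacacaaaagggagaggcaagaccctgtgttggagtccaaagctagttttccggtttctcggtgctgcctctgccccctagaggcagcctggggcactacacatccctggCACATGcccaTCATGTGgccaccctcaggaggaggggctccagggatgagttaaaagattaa
Trpm1, first start site (chr7:64153585-64153834, + strand): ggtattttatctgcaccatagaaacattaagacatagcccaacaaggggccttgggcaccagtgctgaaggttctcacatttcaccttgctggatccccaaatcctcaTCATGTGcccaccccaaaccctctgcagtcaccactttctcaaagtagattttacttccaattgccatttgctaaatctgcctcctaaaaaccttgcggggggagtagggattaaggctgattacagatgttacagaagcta
Trpm1, second start site (chr7:64185209-64185458, + strand): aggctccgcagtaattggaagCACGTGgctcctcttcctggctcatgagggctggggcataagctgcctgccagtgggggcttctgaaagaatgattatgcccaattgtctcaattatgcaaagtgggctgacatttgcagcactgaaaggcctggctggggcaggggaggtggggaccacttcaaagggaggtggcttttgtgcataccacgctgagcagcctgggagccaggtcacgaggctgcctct
Slc24a5 (chr2:125067877-125068126, + strand): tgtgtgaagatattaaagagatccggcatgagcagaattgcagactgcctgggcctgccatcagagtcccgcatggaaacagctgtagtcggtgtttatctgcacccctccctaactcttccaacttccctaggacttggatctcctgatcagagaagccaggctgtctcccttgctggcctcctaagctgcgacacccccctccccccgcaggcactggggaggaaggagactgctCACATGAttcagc
Oca2 (chr7:56239509-56239758, + strand): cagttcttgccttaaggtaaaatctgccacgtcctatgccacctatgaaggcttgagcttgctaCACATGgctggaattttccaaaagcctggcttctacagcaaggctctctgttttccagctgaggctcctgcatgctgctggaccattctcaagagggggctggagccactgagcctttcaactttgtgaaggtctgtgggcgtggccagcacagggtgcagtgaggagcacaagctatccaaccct
Gpnmb (chr6:49036268-49036517, + strand): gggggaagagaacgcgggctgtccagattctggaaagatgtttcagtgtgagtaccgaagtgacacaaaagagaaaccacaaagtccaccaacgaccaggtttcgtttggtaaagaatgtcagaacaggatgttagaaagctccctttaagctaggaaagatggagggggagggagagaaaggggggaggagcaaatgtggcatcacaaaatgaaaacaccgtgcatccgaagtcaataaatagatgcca
Mc1r held CATGTG on both strands, with its first base 62 and 51 bases before the start site, and the nearer of these had the T in front. The longer form TCATGTG was also present upstream of the first Trpm1 start site and, on the minus strand with its last base 7 bases before the start site, in Slc24a5. The second Trpm1 start site had CACGTG and Oca2 had CATGTG, both without the flanking T, and these letters were not in the Gpnmb window. Of 32851 mouse promoter windows of the same length, 12.25% held CATGTG, 3.25% TCATGTG, 6.02% CACGTG and 3.13% TCACGTG on either strand, and CATGTG is contained in TCATGTG as CACGTG is in TCACGTG. A match is only a run of letters, and binding was not measured in these libraries.

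The reads counted on genes ran from 18300902 to 26667877 per library, and the members took 1.11% to 1.16% of them in the parental cells. Tfeb was at 32.7% to 58.1% of its parental mean in the 4 lines labelled as lacking TFEB, and Tfe3 at 23.3% to 53.3% in the 4 labelled as lacking TFE3. Mitf itself was at 180% ± 8.16 (SD, n = 3) of the parental mean in the MITF KO line and at 154% ± 10.9 in the MITF/TFE3 DKO. It was at 74.8% ± 4.12 in the MITF/TFEB DKO line and at 43.1% ± 1.66 in the TKO. The transcript thus persists in the lines labelled as lacking MITF, and its level does not check that label. Of 9 melanocytic markers 8 were measured. They summed to 21730 to 23120 CPM in the parental libraries and 36280 to 37490 CPM in the MITF KO line. The sum was 18400 to 20460 CPM in the MITF/TFEB DKO line and 16680 to 17710 CPM in the TKO. It rests largely on Dct, with means of 17751, 14551 and 13042 CPM in the parental cells, the MITF/TFEB DKO and the TKO. Tyr, Tyrp1 and S100b are given singly below. Kit was listed at 0 reads in every MITF/TFEB DKO and TKO library. Fibroblast markers (3 of 8 measured, Col3a1, Dcn and Pdgfra not among them) summed to 11.4 to 14.97 CPM in the parental cells, 40.5 to 53.9 CPM in the MITF/TFEB DKO line and 25.0 to 27.1 CPM in the TKO. Macrophage and leukocyte markers (2 of 10 measured) summed to 0.225 to 1.77 CPM in the parental cells, 3.37 to 5.12 CPM in the MITF/TFEB DKO line and 3.64 to 4.52 CPM in the TKO. Of 6 keratinocyte markers only Krt14 was measured, at 0 reads in the parental cells, 6.51 to 8.98 CPM in the MITF/TFEB DKO line and 16.1 to 19.3 CPM in the TKO, while endothelial markers (2 of 5) summed to 10.4 to 10.7 CPM in the parental cells and at most 0.706 CPM in these 2 lines. In the MITF KO line fibroblast markers summed to 35.2 to 44.9 CPM and endothelial markers to 1.08 to 1.53 CPM. Macrophage and leukocyte markers summed there to 0.843 to 1.93 CPM, and Krt14 was at most 0.161 CPM. The part of these markers in the results was not tested.

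Pmel (ENSMUSG00000025359, chromosome 10, 128540064 to 128556107 on the build mm39, plus strand) was called against the parental cells in the 2 lines that lack both MITF and TFEB and in none of the other 5. Levels are in CPM, a gene's reads scaled to the depth of its library, with TMM factors applied by the authors, and its parental libraries stood at 3634, 3588 and 4092, those of the MITF KO line at 3487, 3171 and 3921, and those of the MITF/TFE3 DKO at 3502, 3546 and 3648. In the MITF/TFEB DKO line they were 813, 970 and 1038 CPM, and in the TKO 527, 544 and 583 CPM. The libraries of these last 2 lines lay below every other library, and those of the TKO lay below those of the MITF/TFEB DKO line. Pmel thus stood at 24.9% ± 3.07 (SD, n = 3) of the parental mean in the MITF/TFEB DKO line and at 14.6% ± 0.754 in the TKO, or −2.01 and −2.77 on the log2(CPM + 1) scale (limma, adjusted p = 5.6e-13 and 1e-15, SE 0.11 each). The MITF KO line alone differed from the parental cells by −0.10 (limma, adjusted p = 0.51). In bulk libraries, fewer cells with a transcript and less of it per cell cannot be told apart. The last 1000 bases of the gene overlap Dgka on the other strand, and whether reads were counted by strand is not given in the sources used here. Relative to parental libraries, Dgka (mean 4.87 CPM) rose where Pmel fell, with log2 fold changes of 2.36 (MITF/TFEB DKO) and 2.40 (TKO).

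Mlana (ENSMUSG00000024806, chromosome 19, 29674900 to 29686034) was lower in the MITF KO line and lower again without TFEB. The parental libraries had 760.3, 784 and 851 CPM, the MITF KO line 513, 437 and 516 CPM, the MITF/TFEB DKO line 227, 252 and 266 CPM, and the TKO 182, 177 and 189 CPM. These 4 lines did not overlap. The MITF KO line kept 61.2% ± 5.6 of the parental level (log2 fold change −0.71 ± 0.11 SE, limma, adjusted p = 1.4e-05), which is under the fold of 2 required for a call, the MITF/TFEB DKO line 31.1% ± 2.45 and the TKO 22.9% ± 0.799. The MITF/TFE3 DKO, at 611, 628 and 554 CPM, stood above the MITF KO line in all libraries.

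Gpnmb (ENSMUSG00000029816, chromosome 6, 49013426 to 49047863) was higher in the MITF KO line, at 8013, 8189 and 8366 CPM, than in the parental cells at 6104, 6026 and 5455 CPM, without reaching a fold of 2 (0.48 ± 0.11, limma, adjusted p = 0.0019). It stood at 3563, 4857 and 4086 CPM in the MITF/TFE3 DKO, at 3268, 3438 and 3189 CPM in the MITF/TFEB DKO line and at 3219, 3033 and 3088 CPM in the TKO. These 3 lines lay below all others, and the last 2 overlapped each other. Gpnmb was the member for which the loss of TFE3 from cells without MITF came closest to the loss of TFEB, with −0.99 ± 0.11 for the MITF/TFE3 DKO and −1.31 ± 0.11 for the MITF/TFEB DKO line against the MITF KO line. The first of these passed a fold of 2 without MITF KO replicate 1 (−1.001) or MITF/TFE3 DKO replicate 2 (−1.10), and the second missed it with quantile normalization (−0.88). Against the parental cells Gpnmb missed a fold of 2 in both the MITF/TFEB DKO line (−0.83) and the TKO (−0.91).

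**Figure D1:**
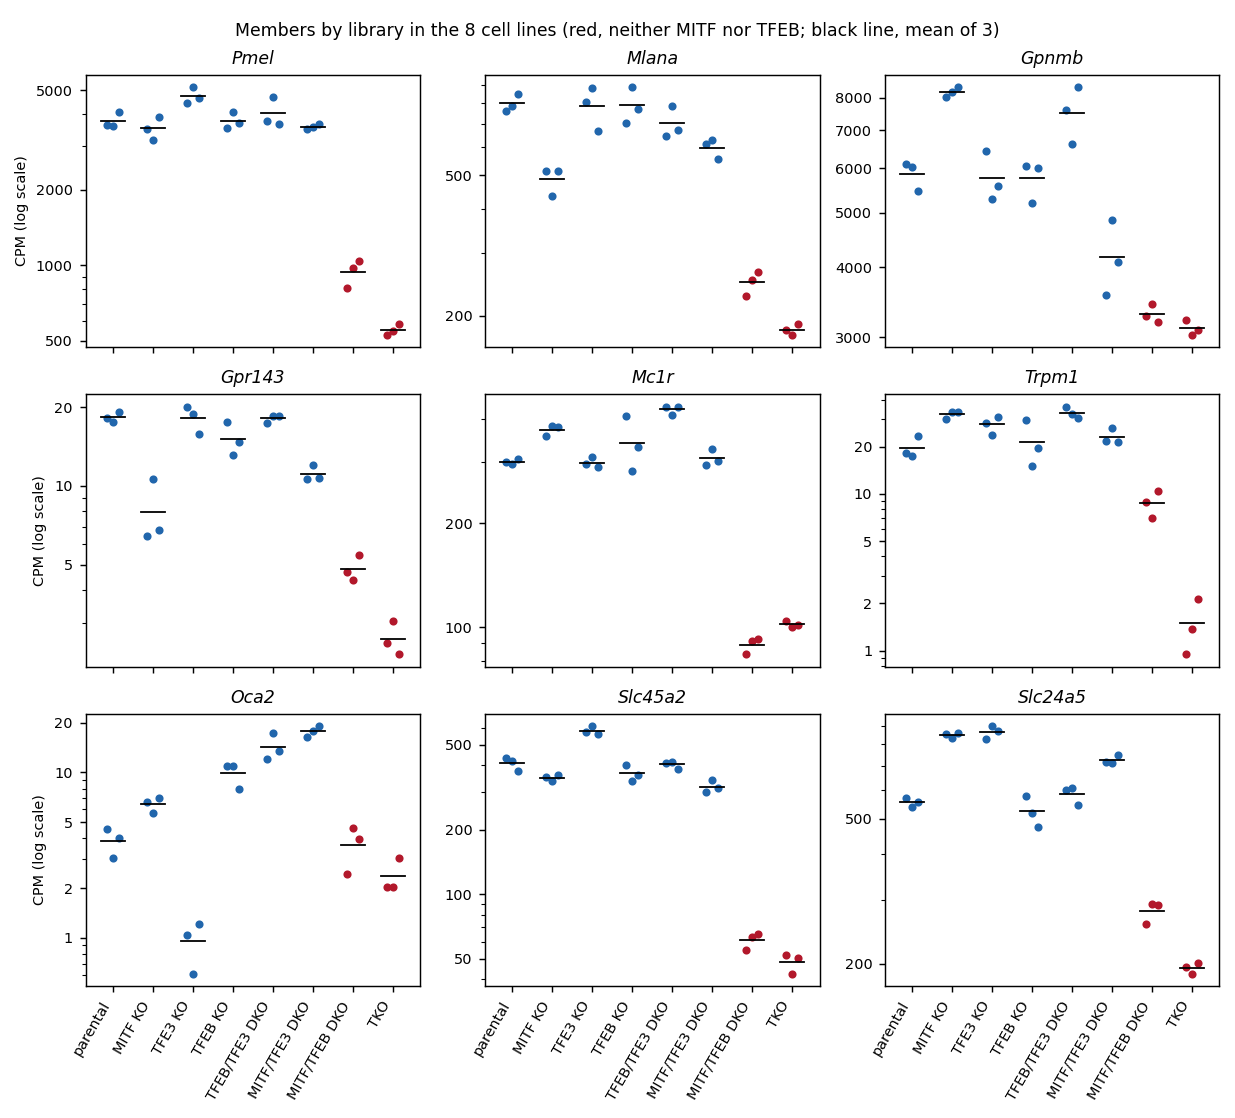
Each panel plots 1 gene in the 24 libraries, with CPM on a log axis, the 8 lines along the x axis, a point per library and a black line at the mean of 3. The red points, which mark the lines without MITF and TFEB, lie below all blue points in 8 of the 9 panels, the exception being Oca2 with its lowest points in the TFE3 KO. How many of all genes do so was not counted. The share is at most the 12.5% whose red points lie below those of the other lines without MITF.

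The receptors stood on opposite sides of the parental level in the MITF KO line. Gpr143 (ENSMUSG00000025333, chromosome X, 151564842 to 151591652) had 18.2, 17.6 and 19.1 CPM in the parental cells and 6.45, 10.6 and 6.81 CPM in the MITF KO line. It was the only member called in the comparison of the MITF KO line with the parental cells (−1.14 ± 0.15, limma, adjusted p = 2.5e-06), and the call was lost with a pseudocount of 5 (−0.86). The MITF/TFE3 DKO had 10.6, 12.1 and 10.7 CPM and overlapped the MITF KO line, the MITF/TFEB DKO line had 4.71, 4.37 and 5.45 CPM, and the TKO had 2.51, 3.04 and 2.28 CPM from 53 to 69 reads per library. The TKO thus kept 14.3% ± 2.14 of the parental level. Loss of TFEB or TFE3 with MITF in place left Gpr143 at 82.7% to 99.6% of the parental mean, and the libraries of each of these 3 lines overlapped those of the parental cells.

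Mc1r (ENSMUSG00000074037, chromosome 8, 124133846 to 124137483) was higher in the MITF KO line, at 357, 380.2 and 379.8 CPM, than in the parental cells, at 299, 296 and 306 CPM, by 0.31 ± 0.09 (limma, adjusted p = 0.0087). It was also higher in the TFEB/TFE3 DKO, at 434, 411 and 432 CPM (0.50 ± 0.09, limma, adjusted p = 0.00074). Neither difference reached a fold of 2. With MITF and TFEB both missing the level was 83.6, 91.1 and 92.2 CPM in the MITF/TFEB DKO line and 104, 100.3 and 101 CPM in the TKO, or 29.6% ± 1.57 and 34.0% ± 0.712 of the parental mean. Mc1r was the member that was a little higher in the TKO line than in the MITF/TFEB DKO line, without overlap of the libraries, but the difference of 0.20 had an adjusted p of 0.17 (limma).

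Trpm1 (ENSMUSG00000030523, chromosome 7, 63803583 to 63922019) was the member with the largest difference between the TKO and the MITF/TFEB DKO line. The parental libraries had 18.2, 17.5 and 23.3 CPM and those of the MITF KO line 30.3, 33.6 and 33.5 CPM. The MITF/TFEB DKO line had 8.90, 7.01 and 10.5 CPM and the TKO 0.947, 1.38 and 2.15 CPM, which are 26 to 50 reads per library. No library of the TKO reached the lowest of the MITF/TFEB DKO line, and the difference of −1.99 ± 0.20 (limma, adjusted p = 6e-08) was the only call among the members between these lines. Libraries of these 2 lines did not overlap for Pmel (−0.76), Gpr143 (−0.69), Slc24a5 (−0.52), Mlana (−0.44), Slc45a2 (−0.33) and Mc1r (0.20) either, all of them under a fold of 2. The share of all genes without such overlap was not counted, so these separations are not read as a result about the members. The TKO kept 7.60% ± 3.10 of the parental level and the MITF/TFEB DKO line 44.9% ± 8.92. Against the parental cells the TKO was at −3.07 on the log2(CPM + 1) scale and at −3.73 by edgeR on the reads. The call in the MITF/TFEB DKO line relative to the parental cells (−1.08) was lost without parental replicate 3 (−0.96) or without MITF/TFEB DKO replicate 2 (−0.94), and with a pseudocount of 5 (−0.84).

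Oca2 (ENSMUSG00000030450, chromosome 7, 55889191 to 56186280) followed another order. Its libraries had 4.53, 3.05 and 4.05 CPM in the parental cells and 6.59, 5.66 and 7.03 CPM in the MITF KO line. In the TFE3 KO they had 1.05, 0.606 and 1.21 CPM, in the TFEB KO 10.9, 11.0 and 7.91 CPM, and in the TFEB/TFE3 DKO 12.1, 17.4 and 13.5 CPM. The TFE3 KO was thus the lowest line and the TFEB/TFE3 DKO, which lacks TFE3 as well, the second highest, with no overlap between any of the 3. The MITF/TFE3 DKO was highest, at 16.3, 17.8 and 19.1 CPM, while the MITF/TFEB DKO line at 2.43, 4.62 and 3.94 CPM and the TKO at 2.04, 2.04 and 3.05 CPM overlapped the parental cells in part. Against the parental cells Oca2 fell by 1.32 in the TFE3 KO (SE 0.19, limma, adjusted p = 4.7e-05) and rose by 1.16 in the TFEB KO, 1.65 in the TFEB/TFE3 DKO and 1.95 in the MITF/TFE3 DKO (limma, adjusted p = 0.00039, 5e-06 and 3.5e-08). It was called in neither the MITF/TFEB DKO line (−0.08) nor the TKO (−0.53). All of this rests on 14 to 417 reads per library, and with a pseudocount of 5 in place of 1 the calls in the TFE3 KO (−0.57) and the TFEB KO (0.75) were lost, while edgeR on the reads gave −2.02 for the TFE3 KO.

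Slc45a2 (ENSMUSG00000022243, chromosome 15, 11000803 to 11029319) had the largest fall of the members in the MITF/TFEB DKO line. The parental libraries had 433, 417 and 378 CPM, the MITF KO line 354, 336 and 361 CPM, the MITF/TFEB DKO line 54.6, 62.8 and 64.8 CPM and the TKO 51.9, 42.4 and 50.2 CPM. The MITF/TFEB DKO line kept 14.8% ± 1.33 and the TKO 11.8% ± 1.25 of the parental level (−2.73 and −3.06, SE 0.09, limma, adjusted p = 3.8e-17 and 1.9e-18). The TFE3 KO stood above all other lines, at 572, 609.9 and 561 CPM, without reaching a fold of 2 over the parental cells (0.51).

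Slc24a5 (ENSMUSG00000035183, chromosome 2, 124909836 to 124930597) was above the parental level in the MITF KO line and in the TFE3 KO and below it when MITF and TFEB were both gone. The parental libraries had 571, 540.2 and 554 CPM, those of the MITF KO line 854, 835 and 862 CPM, and those of the TFE3 KO 828, 898 and 869 CPM, which overlapped the MITF KO line (0.61 and 0.64, SE 0.07, limma, adjusted p = 7e-07 and 2.3e-06, both under a fold of 2). The level was 257, 292 and 289 CPM in the MITF/TFEB DKO line and 195, 187 and 201.4 CPM in the TKO, or 50.3% ± 3.5 and 35.1% ± 1.26 of the parental mean. The first of these, at −0.99, missed the fold of 2 narrowly and passed it without parental replicate 2, MITF/TFEB DKO replicate 2 or MITF/TFEB DKO replicate 3 (−1.01 to −1.02). The last 1000 bases of Slc24a5 overlap Myef2 on the other strand, which differed by −0.39 in the MITF/TFEB DKO line and 0.02 in the TKO.

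A gene was called where it changed by a fold of at least 2 with an unadjusted p under 0.05 in limma. Against the parental cells, 1 member was lower in the MITF KO line (Gpr143) and none higher, where 2.99% of all genes were called lower and 3.29% higher. The TFE3 KO had 1 member lower (Oca2) against 1.34% of all genes, and none higher against 0.366%. In the TFEB KO 1 was higher (Oca2) against 0.192% of all genes, and none lower against 0.591%. The TFEB/TFE3 DKO had 1 higher (Oca2) against 0.575%, and none lower against 0.383%. The MITF/TFE3 DKO had 1 higher (Oca2) against 3.5%, and none lower against 2.37%. In the MITF/TFEB DKO line 6 members were lower (Pmel, Mlana, Gpr143, Mc1r, Trpm1 and Slc45a2) where 4.94% of all genes were, and none was higher where 8.78% were. The TKO had 7 lower, the same 6 and Slc24a5, where 6.41% of all genes were, and none higher where 8.28% were. The median of the 9 members was −1.68 in the MITF/TFEB DKO line and −2.12 in the TKO, beside 0.01 over all genes in each. These comparisons share the parental libraries.

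**Figure D2:**
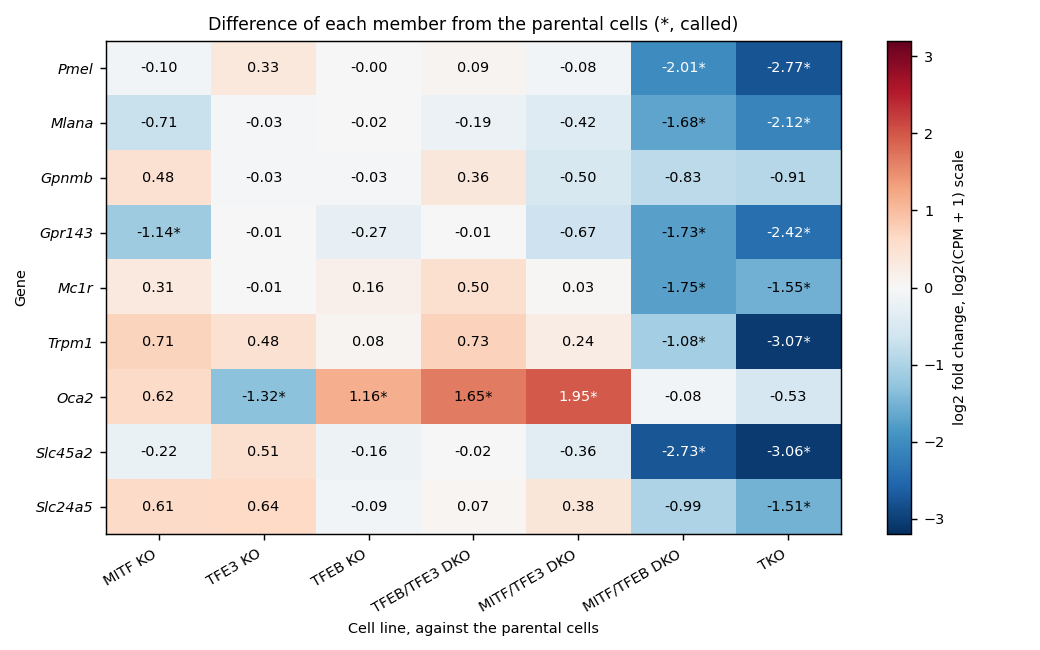
The grid gives the log2 fold change of each gene (rows) in each KO line (columns) against the parental cells, in blue where lower and red where higher, with an asterisk where it was called. The MITF/TFEB DKO and TKO columns hold 6 and 7 calls, all of them lower, and Oca2 is called in 4 other columns.

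Lines without MITF that differ in TFEB or TFE3 were then compared. In the MITF/TFEB DKO line 6 members were lower than in the MITF KO line (Pmel, Gpnmb, Mc1r, Trpm1, Slc45a2 and Slc24a5), where 3.99% of all genes were called lower, and none was higher, where 6.91% were called higher. In the MITF/TFE3 DKO none was lower than in the MITF KO line (1.67% of all genes) and only Oca2 was higher (3.39%), by 1.34 ± 0.19, which became 0.99 with a pseudocount of 5. Of these 2 comparisons with the MITF KO line, the first gave −2.51 for Slc45a2, −2.05 for Mc1r and −1.91 for Pmel, and the second −0.14, −0.27 and 0.02. In the TKO against the MITF/TFE3 DKO, which again differ in TFEB, 8 members were lower, all but Gpnmb (−0.41), where 5.75% of all genes were, and none higher (5.69%). Between the TKO and the MITF/TFEB DKO lines, which differ in TFE3, only Trpm1 was lower (1.98% of all genes), and none was higher (0.316%). All 9 members were lower in the TKO than in the TFEB/TFE3 DKO, lines that differ in MITF, where 7.02% of all genes were lower, and none was higher (8.89%). In every one of the 9 members the 6 libraries without MITF and TFEB lay below the 6 libraries without MITF that kept TFEB, as they did for 12.5% of all genes. The MITF/TFEB DKO line and the TKO may share their loss of TFEB, so these libraries are not independent evidence of it.

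The same loss of TFEB was compared between cells with and without MITF as a difference of differences. With TFE3 present, the difference between lines without and with TFEB was lower in cells without MITF than in cells with it for 7 members (Pmel, Gpnmb, Mc1r, Trpm1, Oca2, Slc45a2 and Slc24a5), where 4.77% of all genes were called this way and 7.56% the other way, with no member. With TFE3 absent, 8 members were so called, all but Gpnmb (−0.79), where 8.68% of all genes were and 7.64% the other way, with no member. Slc45a2, for instance, differed by −0.16 ± 0.09 between the TFEB KO and the parental cells and by −2.51 ± 0.09 between the MITF/TFEB DKO line and the MITF KO line, a difference of −2.35 ± 0.12 (limma, adjusted p = 3.5e-13). For Pmel the difference of differences was −1.90 ± 0.16 with TFE3 present and −2.45 ± 0.16 with TFE3 absent. For Oca2 it was −1.86 and −5.45, and in the second case Oca2 differed by 2.97 in cells with MITF and by −2.48 in cells without it. By edgeR on the reads the second value was −6.80, and for Trpm1 it was −4.22 beside −3.55 on the log2(CPM + 1) scale. The loss of TFE3 was called differently between cells with and without MITF for Oca2 alone, by 2.65 ± 0.27 (limma, adjusted p = 9.5e-08; 3.49 by edgeR on the reads), where 4.1% of all genes were called in this direction, and no member was called in the other, where 2.1% of all genes were. Differences of differences under a fold of 2 with an adjusted p under 0.05 (limma) were also found there for Slc24a5 (−0.87), Gpnmb (−0.96), Trpm1 (−0.95) and Slc45a2 (−0.65).

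**Figure D3:**
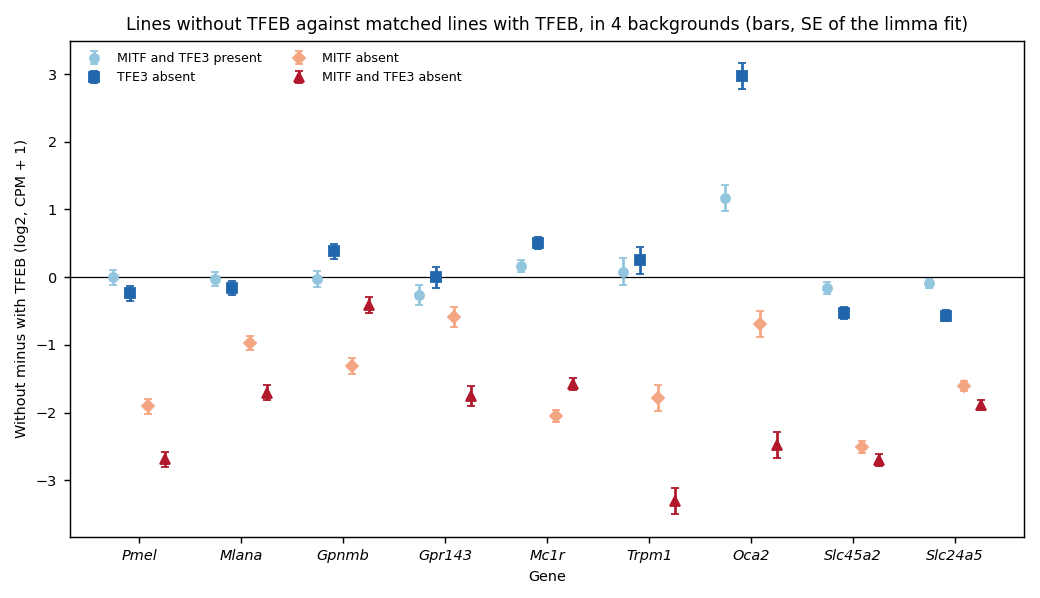
For each gene on the x axis, 4 points give the log2 difference between a line without TFEB and the matched line with it, in cells with both other factors, without TFE3, without MITF and without both, with bars of 1 SE. For all genes the 2 points for cells without MITF are below 0, and those for cells with MITF lie between −0.57 and 0.51 except for Oca2, at 1.16 and 2.97.

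Among the enzymes that make melanin, Tyr, the gene of the rate-limiting enzyme, stood at 127, 133 and 134 CPM in the parental cells, 102, 118 and 113 CPM in the MITF KO line, 12.5, 11.8 and 14.1 CPM in the MITF/TFEB DKO line and 8.78, 7.66 and 8.6 CPM in the TKO. Tyrp1 fell by 1.01 in the MITF/TFEB DKO line and by 1.25 in the TKO, and stood at 0.56 in the MITF KO line, under a fold of 2. Dct was never called against the parental cells, with 0.71 in the MITF KO line and −0.44 in the TKO.

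Genes that sort or cut PMEL were taken as a list of 14, of which 13 were measured. In the MITF KO line 1 was lower, Apoe (−1.01 ± 0.09), whose product helps to load PMEL fibrils onto vesicles inside the early melanosome. Of all genes, 2.99% were called lower there. The MITF/TFEB DKO line had 2 lower and 2 higher, with a median of 0.26 beside 0.01 over all genes, and the TKO 2 lower and 1 higher, with a median of 0.18. Of all genes, 4.94% were called lower and 8.78% higher in the first line and 6.41% and 8.28% in the second, so that a single higher gene of 13 is near that share. Bace2, the protease that releases the fibril-forming fragment of PMEL, was at 222 ± 3.05 CPM in the parental cells, 62.0 ± 3.34 CPM in the MITF/TFEB DKO line and 30.2 ± 2.95 CPM in the TKO (mean ± SD, n = 3). Apoe fell by 1.66 and 2.32 in the same 2 lines. Furin, a proprotein convertase that cuts PMEL earlier, rose instead, from 51.6 ± 7.43 CPM to 165 ± 14.6 CPM in the MITF/TFEB DKO line and 142 ± 5.22 CPM in the TKO.

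Of 33 genes of melanocortin and cyclic AMP signalling, the pathway of MC1R, 27 were measured. In the MITF KO line 1 was lower and none higher, in the MITF/TFEB DKO line 3 were higher and 1 lower, and in the TKO 4 were higher and 1 lower, with medians of 0.04, 0.14 and 0.16 on the log2 scale beside 0.00, 0.01 and 0.01 over all genes. Of all genes, 3.29% were called higher and 2.99% lower in the MITF KO line, and 8.28% and 6.41% in the TKO. The counts in the MITF/TFEB DKO line are near the shares of all genes called there (8.78% higher and 4.94% lower). The genes named next are given as single genes and not as a change of the pathway. Pde4b, a phosphodiesterase that breaks down cyclic AMP, rose by 1.53 ± 0.10 in the MITF/TFEB DKO line and 1.97 ± 0.10 in the TKO, from 37.0 ± 2.21 CPM in the parental cells to 109.1 ± 7.17 and 148 ± 4.70 CPM. Prkar1b, which encodes a regulatory subunit of protein kinase A, rose from 0.907 ± 0.122 CPM to 7.17 ± 1.08 CPM in the MITF/TFEB DKO line and 3.70 ± 0.515 CPM in the TKO. Among the adenylyl cyclases, which make cyclic AMP, Adcy6 rose by 1.30 ± 0.30 in the MITF/TFEB DKO line and Adcy2 fell by 1.25 ± 0.21 in the TKO, to at most 9 reads per library.

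Of 20 other genes for ion, metal and amino acid transport in melanosomes and lysosomes, all were measured. In the MITF KO line 1 was higher, the channel gene Mcoln2 (1.04 ± 0.15), and 1 lower, the chloride exchanger gene Clcn5 (−1.27 ± 0.21). Of all genes, 3.29% were called higher there and 2.99% lower. In both the MITF/TFEB DKO line and the TKO 1 was higher and 2 were lower, with medians of 0.31 and 0.16 beside 0.01 over all genes in each. These counts of 20 are near the shares of all genes called (8.78% higher and 4.94% lower, and 8.28% and 6.41%). Slc7a11, the cystine exchanger that feeds the sulphur of red melanin, fell by 2.18 ± 0.21 in the MITF/TFEB DKO line and by 2.95 ± 0.21 in the TKO, from 14.3 ± 2.39 CPM in the parental cells to 2.38 ± 0.641 and 1.02 ± 0.551 CPM. The zinc exporter gene Slc30a1 rose in both lines, by 1.37 and 1.59, and Clcn5 fell by 1.16 and 1.08.

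Across the 8 line means of log2(CPM + 1), the 28 pairs of members without Oca2 had Pearson's r between 0.697 (Gpnmb and Gpr143) and 0.990 (Pmel and Slc45a2), and the 8 pairs with Oca2 between 0.251 and 0.481. These points share lines and libraries, so the values describe the pattern only. Among genes with a mean of at least 5 CPM, the non-members most like Pmel over these 8 lines were Tpd52l1 (r = 0.998) and Tspan10 (0.995), and those most like Mlana were Sdad1 (0.997) and Alg2 (0.996). Slc45a2 was most like Got1 (0.993) and Sco1 (0.99), Slc24a5 like Ptprg (0.99) and Ints2 (0.983), and Mc1r like Fra10ac1 (0.984) and Shmt2 (0.982). For Gpr143 these were Gpm6a (0.99) and Cutc (0.99), for Gpnmb Pcnx3 (0.979) and Ankfn1 (0.976), for Trpm1 Zgpat (0.963), and for Oca2 Pnpla8 (0.968) and Smoc1 (0.952).

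Genes that lie near some members differed as well. For each member, the 100 nearest genes on the chromosome with a mean of at least 5 CPM were taken, and 11659 of the 12010 genes had a position. Around Mlana the median of these neighbours was −0.70 in the MITF/TFEB DKO line and −0.68 in the TKO, and around Mc1r it was −0.51 and −0.46. Less this median, Mlana stood at −0.98 and −1.44 and Mc1r at −1.24 and −1.09. For the TKO against the MITF/TFE3 DKO, the neighbours of Mc1r were at −0.75, and Mc1r less this median at −0.83. For the MITF/TFEB DKO line against the MITF KO line, the neighbours of Mlana were at −0.60 and those of Mc1r at −0.59. Less these medians, Mlana stood at −0.37 and Mc1r at −1.46. Around the other 7 members the medians ran from −0.26 to 0.41 in the MITF/TFEB DKO line and from −0.27 to 0.31 in the TKO. Pmel, whose neighbours were at 0.41 and 0.31, had the highest, and around Slc45a2 they were at −0.21 and −0.17, beside its own −2.73 and −3.06. Between the TKO and the MITF/TFEB DKO lines the medians around all 9 members lay between −0.01 and 0.06. Of the genes of the table next to Mc1r, Tcf25 stood at −1.03 in the MITF/TFEB DKO line and −0.94 in the TKO, and Tubb3 at 1.41 and 2.34. Next to Pmel, Cdk2 was at −1.21 and −1.11 and Dgka at 2.36 and 2.40, and next to Mlana, Ranbp6 was at −0.96 and −0.93 and Ermp1 at −0.19 and 0.02. The part of the region in these differences was not tested.

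**Figure D4:**
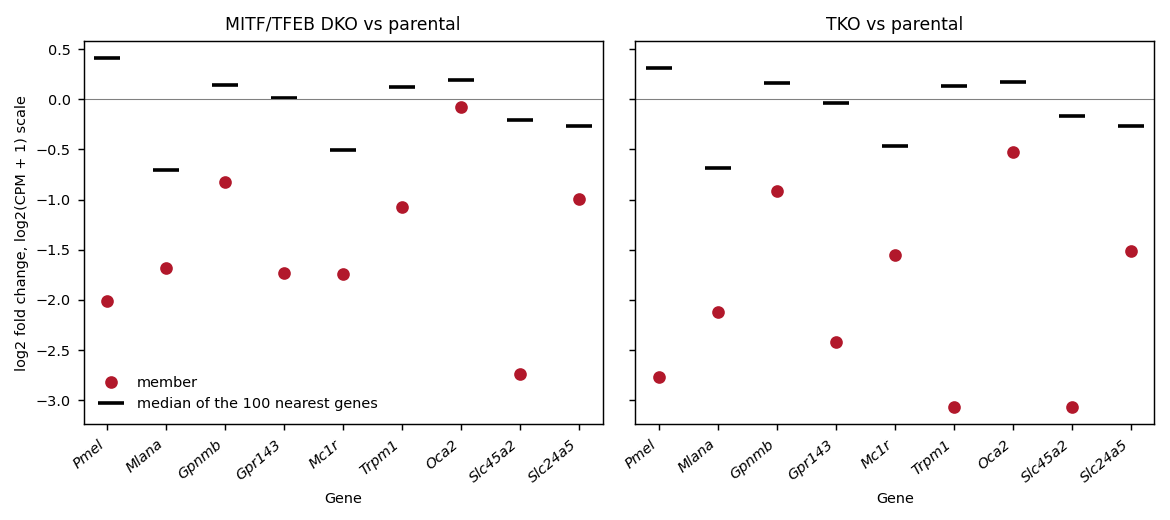
Red points give the log2 fold change of each member against the parental cells, and black bars the median of its 100 nearest genes, in the MITF/TFEB DKO (left) and the TKO (right). The bars of Mlana and Mc1r lie lowest, at −0.70 and −0.51 on the left, and each member's point lies below its bar in both panels.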

How the data were processed

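All 24 libraries were read from the 3′ ends of transcripts, after priming at the poly(A) tail, so that read number does not scale with transcript length. The submitters' processing notes name FastQC 0.11.9, Trim Galore 0.6.5, cutadapt 2.10, STAR 2.7.8a, edgeR and the build mm39, and the libraries ran on a single flow cell. The authors deposited a signal table of CPM divided by TMM factors for 12010 genes. The counting tool, the annotation and the gene filter are not given in the sources used here. Columns of other samples numbered 0.

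The steps between values gave back whole reads (at least 99.99% whole within 0.1 read). The fit was made in limma 3.58.1, on log2(CPM + 1), for all libraries at once, with a variance trend and 16 residual degrees of freedom. This scale understates changes of low genes. A call needed a 2-fold change or more with p below 0.05 before adjustment, with Benjamini-Hochberg adjusted p over all genes. Alternatives were edgeR 4.0.16 on the reads, DESeq2 1.42.0 size factors, quantile normalization, pseudocounts of 0.25 and 5, a mean of at least 5 CPM, an adjusted threshold, only the lines compared, no variance trend, the replicate block and each library left out. On simulated data the steps were tested with a fixed seed. Replicates of a line differed by more than sampling noise (chi-square per degree of freedom of at least 4.63), so all counted separately.

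Named genes are the members, Mitf, Tfeb, Tfe3, Tyr, Tyrp1 and Dct, of each other list at most 3 called genes with an adjusted p under 0.05 and the largest change in the MITF KO, MITF/TFEB DKO and TKO, and per member the 2 genes most like it, of which 1 is not reported here. Flanking and overlapping genes (Dgka, Cdk2, Myef2, Tcf25, Tubb3, Ranbp6 and Ermp1) and marker genes were named after their values were seen. The members and lists were chosen with earlier results of these data known. Gene positions come from GENCODE vM39 and promoters from RefSeq. R 4.3.3, Python 3.11.15, numpy 2.4.6, pandas 2.3.3 and matplotlib 3.10.9 were used.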

Additional observations from a re-analysis of the deposited data

Results flagged for a closer look

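These results stand out because the difference made by losing TFEB or TFE3 was itself tested and found to differ between cells with and without MITF (limma, a fold of at least 2, adjusted p between 1.4e-13 and 1.3e-05). Values are differences of log2(CPM + 1) differences, and groups of 3 libraries were not screened for outlying samples.

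For the loss of TFEB with TFE3 present, the difference between cells without and with MITF was −1.90 for Pmel, −1.28 for Gpnmb, −2.22 for Mc1r, −1.87 for Trpm1, −1.86 for Oca2, −2.35 for Slc45a2 and −1.52 for Slc24a5. With TFE3 absent it was −2.45 for Pmel, −1.54 for Mlana, −1.75 for Gpr143, −2.09 for Mc1r, −3.55 for Trpm1, −5.45 for Oca2, −2.18 for Slc45a2 and −1.32 for Slc24a5. The medians of the 100 nearest genes ran from −0.84 to 0.39 with TFE3 present and from −0.91 to 0.61 with TFE3 absent. Both lowest values were those around Mc1r. Less this median, Mc1r stood at −1.38 and −1.18, and Mlana, with TFE3 absent, at −1.04. The part of the region was not tested. Mlana and Gpr143 were called with TFE3 absent and, at −0.95 and −0.33, not with TFE3 present, and whether those values differ was not tested.

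For the loss of TFE3 with TFEB present, Oca2 alone was called, at 2.65.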

How the results depend on the processing

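No member changed direction with a call under any alternative. All 135 member and contrast values kept their call with edgeR on the reads, median-of-ratios size factors, a pseudocount of 0.25, a mean of at least 5 CPM, an adjusted threshold, no variance trend and only the lines compared. By edgeR on the reads, some log2 values of Trpm1 and Oca2 lay further from 0. Trpm1 in the TKO was at −3.73 in place of −3.07, and Oca2 in the TFE3 KO at −2.02 in place of −1.32. With a pseudocount of 5, the members called fell to 0 in the MITF KO line (lower), the TFE3 KO (lower), the TFEB KO (higher) and the MITF/TFE3 DKO against the MITF KO line (higher), where Gpr143 stood at −0.86 and Oca2 at −0.57, 0.75 and 0.99, and Trpm1 in the MITF/TFEB DKO line at −0.84. A larger pseudocount shrinks low genes by construction. With quantile normalization the loss of TFE3 differed between cells with and without MITF for 1 member downward, Trpm1 (−1.001), and Gpnmb lost 3 calls, at −0.88 in the MITF/TFEB DKO line against the MITF KO line, −0.92 in the TKO against the TFEB/TFE3 DKO and −0.88 in the difference of differences. The cause was not tested.

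Leaving out each library gave 0 to 2 members lower for the loss of TFE3 between cells with and without MITF (Trpm1 without parental replicate 3, MITF KO replicate 1, TFE3 KO replicate 2 or MITF/TFE3 DKO replicate 2, and Gpnmb without either of the last 2). It gave 0 to 1 lower in the MITF/TFE3 DKO against the MITF KO line (Gpnmb, without MITF KO replicate 1 or MITF/TFE3 DKO replicate 2) and 5 to 7 lower in the MITF/TFEB DKO line. Of these left-out values 955 kept their call, 15 gained and 2 lost it. Mlana gained a call in the MITF/TFEB DKO line against the MITF KO line without MITF KO replicate 2 (−1.05) or MITF/TFEB DKO replicate 3 (−1.02). In its difference of differences with TFE3 present it gained a call without MITF KO replicate 2 (−1.03) or TFEB KO replicate 1 (−1.02).

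Samples with the same replicate number deviated together no more than others (mean r of 0.022 against −0.013, −0.66 to 0.77 for the same number), so the numbers do not pair the libraries. With the replicate block 6 members were lower in the MITF/TFEB DKO line and 7 in the TKO, and no other call changed. Counts over all genes, 23 to 1068 in the main analysis, were more sensitive, with 90 to 1400 by edgeR on the reads and 8 to 589 with a pseudocount of 5. At these depths Oca2 and, in the TKO, Trpm1 have the fewest reads.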

Other observations

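Of 20 relatives of the members by sequence 7 were measured. In the MITF KO line 1 was higher, Trpm4 (1.14 ± 0.22), which encodes a cation channel of the TRPM family. Of all genes, 3.29% were called higher there and 2.99% lower. In the MITF/TFEB DKO line and the TKO 1 was higher and 2 were lower, with medians of −0.07 and 0.03 beside 0.01 over all genes in each. Of all genes, 8.78% were called higher and 4.94% lower in the first line and 8.28% and 6.41% in the second. Slc45a4 rose by 1.34 ± 0.26 and 1.59 ± 0.26 where Slc45a2 fell. Slc24a4, an exchanger of the same family as Slc24a5, was at 2.59 ± 0.605 CPM in the parental cells and at most 4 reads per library in the MITF/TFEB DKO line and 7 in the TKO, and Trpm3 was at 1.45 ± 0.19 CPM and at most 8 and 10 reads.

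Of 19 transcription factors of pigment cells 13 were measured, none of them called in the MITF KO line. In the MITF/TFEB DKO line 2 were higher, Hes1 (2.41 ± 0.33) and Tfap2b (1.56 ± 0.23), and none lower, and in the TKO the same 2 were higher (1.38 and 1.39) and Tbx2 was lower, at 37.7 ± 1.66 CPM against 80.0 ± 3.27 CPM in the parental cells. The same shares of all genes apply to these and to the markers that follow, and 2 of 13 is a small count to set against 8.78%. Of the 8 melanocytic markers measured, 1 was higher and none lower in the MITF KO line (median 0.36), 1 higher and 2 lower in the MITF/TFEB DKO line (median −0.35) and 1 higher and 3 lower in the TKO (median −0.58). The one that was higher, S100b, rose in all 3 lines, from 316.5 ± 21.2 CPM to 1388 ± 84.7 CPM in the MITF KO line, 2014 ± 111 CPM in the MITF/TFEB DKO line and 1371 ± 29.4 CPM in the TKO. Among markers of other cell types, Col1a1 was at 0.399 ± 0.23 CPM in the parental cells and 7.06 ± 0.785 CPM in the MITF/TFEB DKO line. It was at 2.16 ± 0.272 CPM in the MITF KO line and 1.92 ± 0.838 CPM in the TKO. Lyz2 was at 0.148 ± 0.128 CPM in the parental cells and 3.19 ± 1.04 CPM in the MITF/TFEB DKO line, where the other leukocyte marker measured was not called. The endothelial marker Pecam1 fell from 8.11 ± 0.437 CPM to 0.278 ± 0.304 CPM in the MITF/TFEB DKO line.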
